A study of Arabidopsis thaliana with 6 samples.

Results

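Of the 22746 probe sets that are not array controls, 113 set hydrated pollen apart from both the dry grain before it and the growing tube after it, 69 with their highest signal in hydrated pollen and 44 with their lowest. They were chosen by a rule on these same values. Signals below 32 were set to 32 and put on a log2 scale. Membership required that the hydrated mean lay at least 0.7 above, or at least 0.7 below, both other stage means, and that both hydrated arrays lay on that side of all 4 other arrays. The hydrated differences below are therefore descriptions of how members were chosen, with no test. The rule leaves out 10 genes by name, of which 5 otherwise met its limits, all as dips: AT1G35490, AT3G10470, AT5G04390, AT1G62450 and NET2D.

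The arrays were Affymetrix ATH1 arrays, on which labelled cRNA of 1 sample binds short oligonucleotide probe sets. All pollen came from Arabidopsis thaliana of the Columbia ecotype at 50 days of age, with 2 arrays for each of 3 stages. Mature pollen was desiccated grain taken by vacuum from open flowers. Hydrated pollen was shaken out of flowers for 2 min into a salt medium with 15% sucrose, spun down, and kept as a thin film at 25 °C for 45 min. Growing pollen tubes were handled in the same way for 4 h and averaged about 150 µm in length. A 50 µm nylon mesh held them back while ungerminated grains passed. Hydration cannot be told apart here from shaking, spinning and contact with medium, since mature pollen had none of these. The mesh step separates tubes from hydrated pollen in the same manner. No mesh step is described for the hydrated samples. Replicates are called biological in the series' design text.

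A dry pollen grain holds stored mRNA and proteins and takes up water within minutes of landing on the stigma or in medium. On rehydration it regains active membranes, polarises its cytoskeleton and secretory traffic towards 1 site, and then extends a tube by tip growth. Transcripts that are highest or lowest between these events would be missed by a comparison of dry grains with tubes alone.

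The defining pollen genes named on the arrays were bright. The 8 that were named, of 16 listed, had summed signals of 110769.3 and 84926.4 in mature pollen, 101827.6 and 82669.2 in hydrated pollen, and 91829.7 and 59858.4 in tubes. Among them, the exchanger gene CHX21 was bright only in tubes, at 285.2 and 285.1, and read at most 11.7 in the other stages. Markers of other tissues were near background. The 2 photosynthesis genes named of 10 listed summed to at most 60.2 on any array, the 2 floral genes of 8 to at most 86.7, and the 3 tapetum genes of 8 to at most 51.7. Hydrated arrays held 36.3 and 15.1 of photosynthesis signal, 39.6 and 27.4 of floral signal and 47.1 and 42.5 of tapetum signal, against 59.8 and 29.0, 61.6 and 48.5, and 26.7 and 13.9 in mature pollen. The part of these cells in the results below was not tested. In bulk RNA, fewer cells of a type and less RNA per cell cannot be told apart.

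A hydrated extreme was the rarest of the 3 stage patterns. With the same limits placed around each stage in turn, and before the named genes were left out, 118 probe sets (0.519% of all) had hydrated pollen as the stage apart. There were 597 (2.62%) for mature pollen and 1644 (7.23%) for tubes. Highest and lowest were 69 and 49 for hydrated pollen, 247 and 350 for mature pollen, and 913 and 731 for tubes. Most transcripts that set one stage apart therefore set apart one of the ends of the series. These counts share their arrays and no test was made between them.

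**Figure D1:**
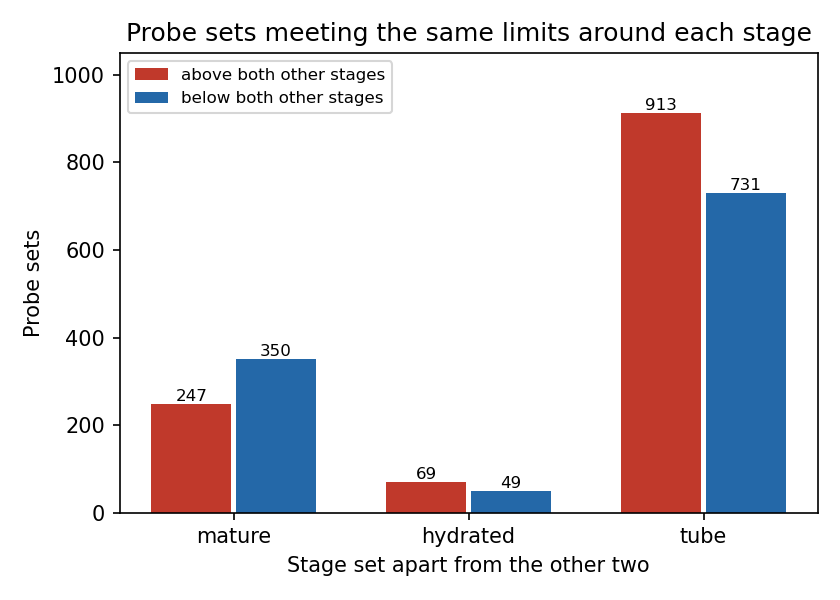
Number of probe sets (vertical axis) whose mean in 1 stage (horizontal axis) lay at least 0.7 (log2, floor 32) above (red) or below (blue) both other stage means with no overlap of arrays. Hydrated pollen has 69 and 49, against 247 and 350 for mature pollen and 913 and 731 for tubes.

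Members were moderate in size and in level. The difference from the nearer of the other stages had a median of 0.85 in peaks, with a range from 0.70 to 1.71, and of -0.82 in dips, with a range from -1.44 to -0.70. Peaks had a median hydrated signal of 111.8, and 32 of the 69 averaged below 100 there, 28 between 100 and 1000, and 9 above 1000. Of the 44 dips, 36 averaged below 100 in hydrated pollen and 1 above 1000, with a median hydrated signal of 44.3. The dips left out by name all averaged above 100 there and are not in these counts. The rule itself places dips low and peaks high in hydrated pollen, and the reverse in the other stages. Median signals of dips were 87.2 in mature pollen and 106.95 in tubes, against 49.35 and 50.85 in peaks. Over all 6 arrays the median of the mean signal was 77.3 in dips and 67.0 in peaks. Dips are therefore not shown to be the dimmer set. An array's 60th percentile served as the background limit and was 19.7 to 34.1, so many members stood only a few times above it. All 6 arrays were above that limit in 36 of the 69 peaks and in 36 of the 44 dips. At least 1 mature array lay below the floor of 32 in 32 peaks and at least 1 tube array in 23, and at least 1 hydrated array in 13 dips. A difference that uses such an array is understated by the floor. In peaks, a nearest difference taken from the other stage can be untouched, as in AT4G26390.

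**Figure D2:**
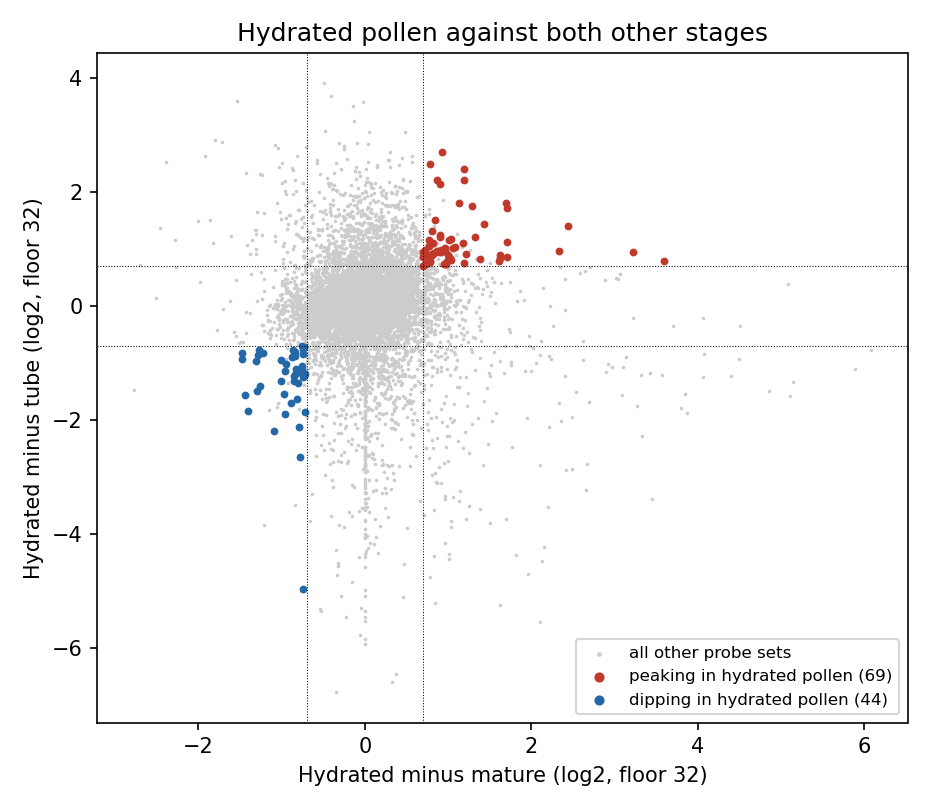
Hydrated minus mature (horizontal axis) against hydrated minus tube (vertical axis), both log2 with a floor of 32, for all probe sets (grey), the 69 peaks (red) and the 44 dips (blue). Dotted lines mark 0.7 above and below 0. The members fill the upper right and lower left corners, mostly close to the lines, and the grey points in those corners are probe sets whose arrays overlap or whose gene was left out by name.

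The limit of 0.7 cuts through a continuous range. In 490 probe sets both hydrated arrays lay above all 4 others and in 288 below them, most with smaller differences. Just inside the limit were the unnamed peaks 261767_s_at at 0.70 and 253041_at at 0.70. Just outside were the unnamed 247368_at at 0.68, with 105.2 and 95.7 in mature pollen, 484.5 and 539.7 in hydrated pollen and 244.6 and 414.6 in tubes, and AT5G18750 at 0.68. Among dips, AT3G60070 at -0.70 and the unnamed 258217_at at -0.71 were just inside, and AT5G55060 at -0.70 and the unnamed 254291_at at -0.70 just outside. A further 28 probe sets lay above both means by the limit, and 11 below, with overlapping arrays.

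In most peaks, tubes and mature pollen were close on the floored scale of the rule. The tube mean lay within 0.7 of the mature mean in 55 of 69 peaks, at least 0.7 above it in 8 and at least 0.7 below it in 6. The median of tube minus mature was -0.04, and it was also -0.04 over all tested probe sets. The share of all tested probe sets within 0.7 was not counted, so close ends are not shown to be particular to peaks. The floor also draws dim ends together. For 258336_at, with 5.1 and 2.7 in mature pollen and 20.7 and 22.2 in tubes, it set the difference to 0. On this scale a typical peak was a single raised stage between similar ends, and a minority combined it with a net gain or loss. Within replicate number 1, hydrated minus mature in peaks had a median of 1.04 (lowest 0.12) and within number 2 of 0.95 (lowest 0.12). For hydrated minus tube the medians were 1.06 (lowest 0.096) and 1.00 (lowest 0.036). The rule fixes the sign of all these differences, so the sign does not bear on agreement between replicates.

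**Figure D3:**
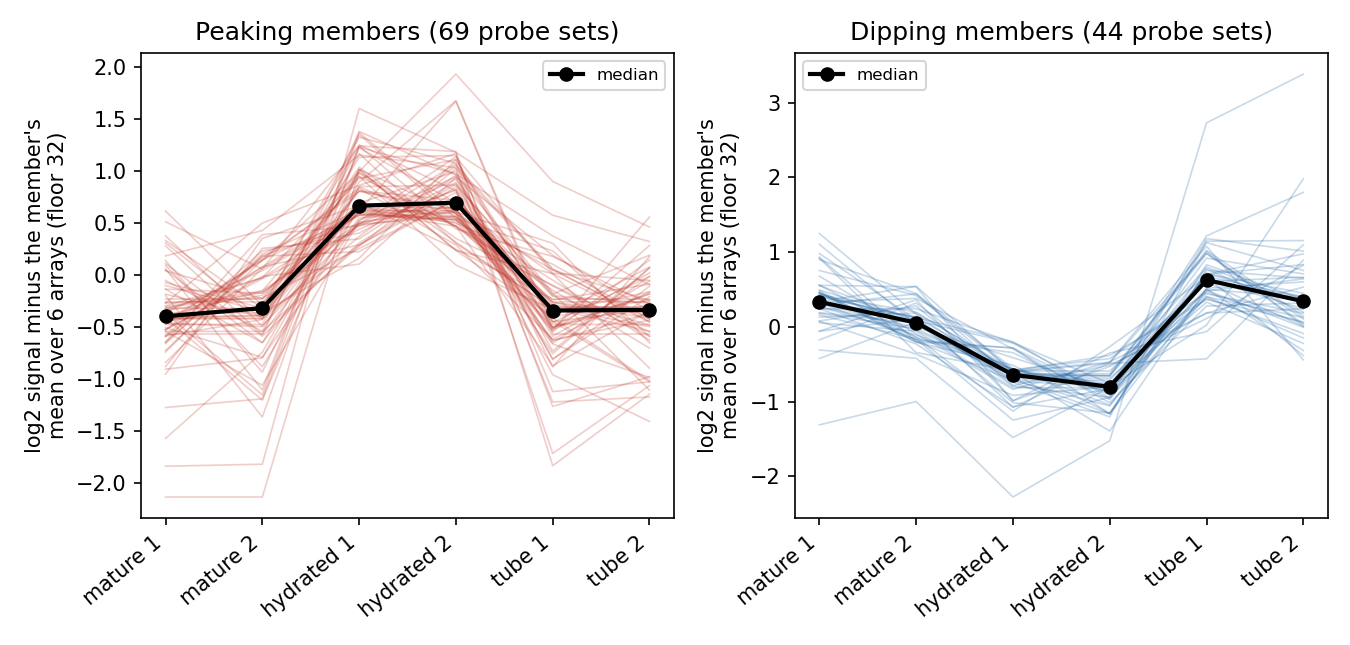
log2 signal (floor 32) of each member minus its own mean over the 6 arrays (vertical axis), for mature, hydrated and tube arrays 1 and 2 (horizontal axis), with 69 peaks on the left and 44 dips on the right. Thin lines are single probe sets and the black line is the median. The vertical scales differ between the panels. A dip with tube signals of 1367 and 2148.3 stands out at the upper right.

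Peaks with 1 gene name numbered 45, and the other 24 were unnamed here. They are described by the known roles of their products, a grouping made after their values were seen. It carries no claim that any role is more frequent than among other genes.

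Among chaperones, the DnaJ-type co-chaperone gene AT3G14200 had the clearest hydrated maximum. It read 17.8 and 56.8 in mature pollen, 176.5 and 303.6 in hydrated pollen, and 66.4 and 115.7 in tubes. The lower hydrated array was above the higher tube array, and the first mature array was below background. Hydrated minus mature was 2.44 and hydrated minus tube 1.40. Cpn60beta2, a subunit of the plastid chaperonin that folds imported proteins, averaged 38.0 ± 11.0 in mature pollen, 121.1 ± 35.9 in hydrated pollen and 65.9 ± 2.26 on tube arrays (SD, n = 2 arrays each). AT3G11450, a DnaJ-domain protein of the ZRF1 type that also carries Myb-like domains, was dim, with 54.9 and 60.5 in hydrated pollen as its highest pair.

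In the ubiquitin system, which tags proteins for degradation, 4 named members peaked. AT4G33940, a RING-type protein, had the highest nearest difference of any named member at 1.69. Its signal was 71.8 and 30.3 in mature pollen, 179.3 and 134.3 in hydrated pollen, and 61.1 and 26.2 in tubes. Both ends lay at about the same low level, with the second array of each below 32. AT5G37230, another RING-type protein, read 111.6 and 113.1 in mature pollen, 1210 and 903.6 in hydrated pollen, and 594.3 and 498.7 in tubes. It was therefore mainly a gain over dry pollen, by 3.22, of which tubes had 0.94 less. Its probe set is of the x_at type, which may take signal from related genes. AT1G47570, also of the RING type, reached 170.4 ± 34.9 in hydrated pollen. Its second hydrated array, at 145.7, barely exceeded its second tube array, at 142.1. AT4G15420, of the UFD1 type that acts in delivering ubiquitinated proteins, reached 720.2 ± 201. Its first hydrated array, at 578.2, was only a little above its first mature array, at 533.

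Genes for RNA-binding and RNA-processing proteins made up 6 of the named peaks, with nearest differences between 0.73 and 0.91. AT3G58510, a DEAD-box RNA helicase, was the brightest of them. It read 143.7 and 232 in mature pollen, 361.1 and 321.8 in hydrated pollen, and 134.2 and 153.3 in tubes. AT2G33410, an RNA-recognition-motif protein, read 67.5 and 94.8 in mature pollen, 131.7 and 171.9 in hydrated pollen, and 68.4 and 85.7 in tubes. In both, mature pollen and tubes overlapped and the hydrated arrays stood above them. AT3G47120, with an RNA recognition motif, averaged 194.0 ± 6.93 in hydrated pollen, and AT1G14650, related to a subunit of the SF3A splicing complex, 87.2 ± 10.3. AT5G55670, a further RNA-recognition-motif protein, differed by 1.71 from mature pollen and by 0.85 from tubes. AT2G17970, the RNA demethylase ALKBH9B that removes methyl groups from adenines in mRNA, was dim at 63.7 ± 4.45 in hydrated pollen.

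Membrane traffic carries wall material and membrane to the growing tip. SEC5A, a subunit of the exocyst that tethers secretory vesicles to the plasma membrane, read 35.7 and 38.6 in mature pollen, 97.9 and 60.9 in hydrated pollen, and 44.6 and 32.7 in tubes. All 4 outer values were close to the floor, and the hydrated maximum was 1.02 above the nearer stage. AT2G43160, an epsin-type protein of clathrin-coated vesicles, was bright, at 684.6 and 1399.9 in mature pollen, 1484.8 and 1883.1 in hydrated pollen, and 611.8 and 925.8 in tubes. Its second mature array reached almost the first hydrated array. DL1D, a dynamin-like GTPase, averaged 59.4 ± 4.24 in hydrated pollen against 26.3 ± 16.5 in mature pollen and 26.4 ± 10.6 in tubes. AT1G79990, a beta-prime subunit of the COPI coat of Golgi vesicles, averaged 220.4 ± 60.7 in hydrated pollen, 0.83 above mature pollen. A second probe set of this gene, described below, went the other way.

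Of genes for signalling and membrane proteins, 5 peaked. AT4G24630, a DHHC-type S-acyltransferase, an enzyme class that attaches fatty acids to proteins, read 1070.8 and 644.9 in mature pollen, 1893.7 and 1915.8 in hydrated pollen, and 397.4 and 424.1 in tubes. The stages did not overlap, and tubes were lowest. HHP2, a heptahelical transmembrane protein, read 3863.7 and 2061.6 in mature pollen, 6008.9 and 4423.9 in hydrated pollen, and 1298.4 and 950.8 in tubes. It was the brightest of these 5 and followed the same order, with hydrated minus tube at 2.21. AT4G29450, a leucine-rich repeat receptor-like kinase, averaged 334.9 ± 77.7 in hydrated pollen. AT5G46070, of the guanylate-binding protein family, and AT5G58200, of the calcineurin-like phosphoesterase family, stayed below 100 on average at 84.8 ± 17.8 and 97.7 ± 17.9.

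Among regulators of chromatin and transcription, AT5G46910, the jumonji-type histone demethylase JMJ13, had nearly equal hydrated arrays. It read 617.8 and 985.8 in mature pollen, 1428.8 and 1431.6 in hydrated pollen, and 650.2 and 821.6 in tubes. The outer stages overlapped fully, and the hydrated maximum was 0.87 above mature pollen and 0.97 above tubes. AT3G05760, a zinc finger protein whose part in transcription was not examined, read 234.8 and 149.4 in mature pollen, 468 and 393.2 in hydrated pollen, and 80.1 and 82.8 in tubes. AT4G37180, a Myb-like factor of the GARP family, read 88.8 and 151.4 in mature pollen, 194.7 and 240.8 in hydrated pollen, and 44.6 and 54.4 in tubes. In both AT3G05760 and AT4G37180 every tube array lay below every mature array.

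Metabolic enzymes gave 5 peaks. AT2G20830, annotated as a folate-binding transferase, read 518.2 and 286.1 in mature pollen, 1102.5 and 642.6 in hydrated pollen, and 269.2 and 215.4 in tubes. AT4G26390, of the pyruvate kinase family at the end of glycolysis, averaged 81.1 ± 8.49 in hydrated pollen. AT5G06580, a mitochondrial D-lactate dehydrogenase, averaged 59.2 ± 3.61 there and was not above background on either tube array, which makes hydrated at least 2.37-fold higher than tubes. AT3G11210, of the SGNH hydrolase family, averaged 712.3 ± 169, and AT1G60590, a polygalacturonase-like pectin enzyme, 91.3 ± 4.24.

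The brightest peak was AT4G39610, of the DUF617 family. It read 7194.8 and 7004.8 in mature pollen, 11980.3 and 11252.8 in hydrated pollen, and 5587.2 and 6511.3 in tubes. The replicates of each stage were close, and the hydrated mean was 0.71 above mature pollen, barely past the limit. AT5G44060 had 202.5 and 239.2 in mature pollen, 506.6 and 573.6 in hydrated pollen, and 195.7 and 130.5 in tubes. CP5, of the polyketide cyclase and lipid transport family, averaged 42.4 ± 0.636 in mature pollen, 106.7 ± 15.9 in hydrated pollen and 46.5 ± 28.8 on tube arrays. AT5G35320 was close to absent in dry pollen on one array. It read 5.8 and 33.9 in mature pollen, 181.4 and 151.8 in hydrated pollen, and 100.4 and 72.5 in tubes. AT1G22110 read 716.7 and 849 in mature pollen, 1404 and 1290.1 in hydrated pollen, and 192.2 and 302 in tubes, so that a high hydrated level preceded the lowest one.

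Of the named peaks, 3 belong to loci listed as pseudogenes in the reference gene table, AT2G14650, AT3G31970 and AT1G43930. All 3 were dim, with hydrated means between 54.9 and 80.8, and 2 of them have x_at probe sets. Of all 69 peaks 4 (5.8%) and of all 44 dips 1 (2.27%) have a probe set of the s_at or x_at types, which may bind several genes. These types make up 4.11% and 0.554% of all probe sets. In the peaks 3 were of the x_at type and 1 of the s_at type, and in the dips the 1 was s_at. The x_at share of peaks was thus above that of all probe sets, which was not tested.

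**Figure D4:**
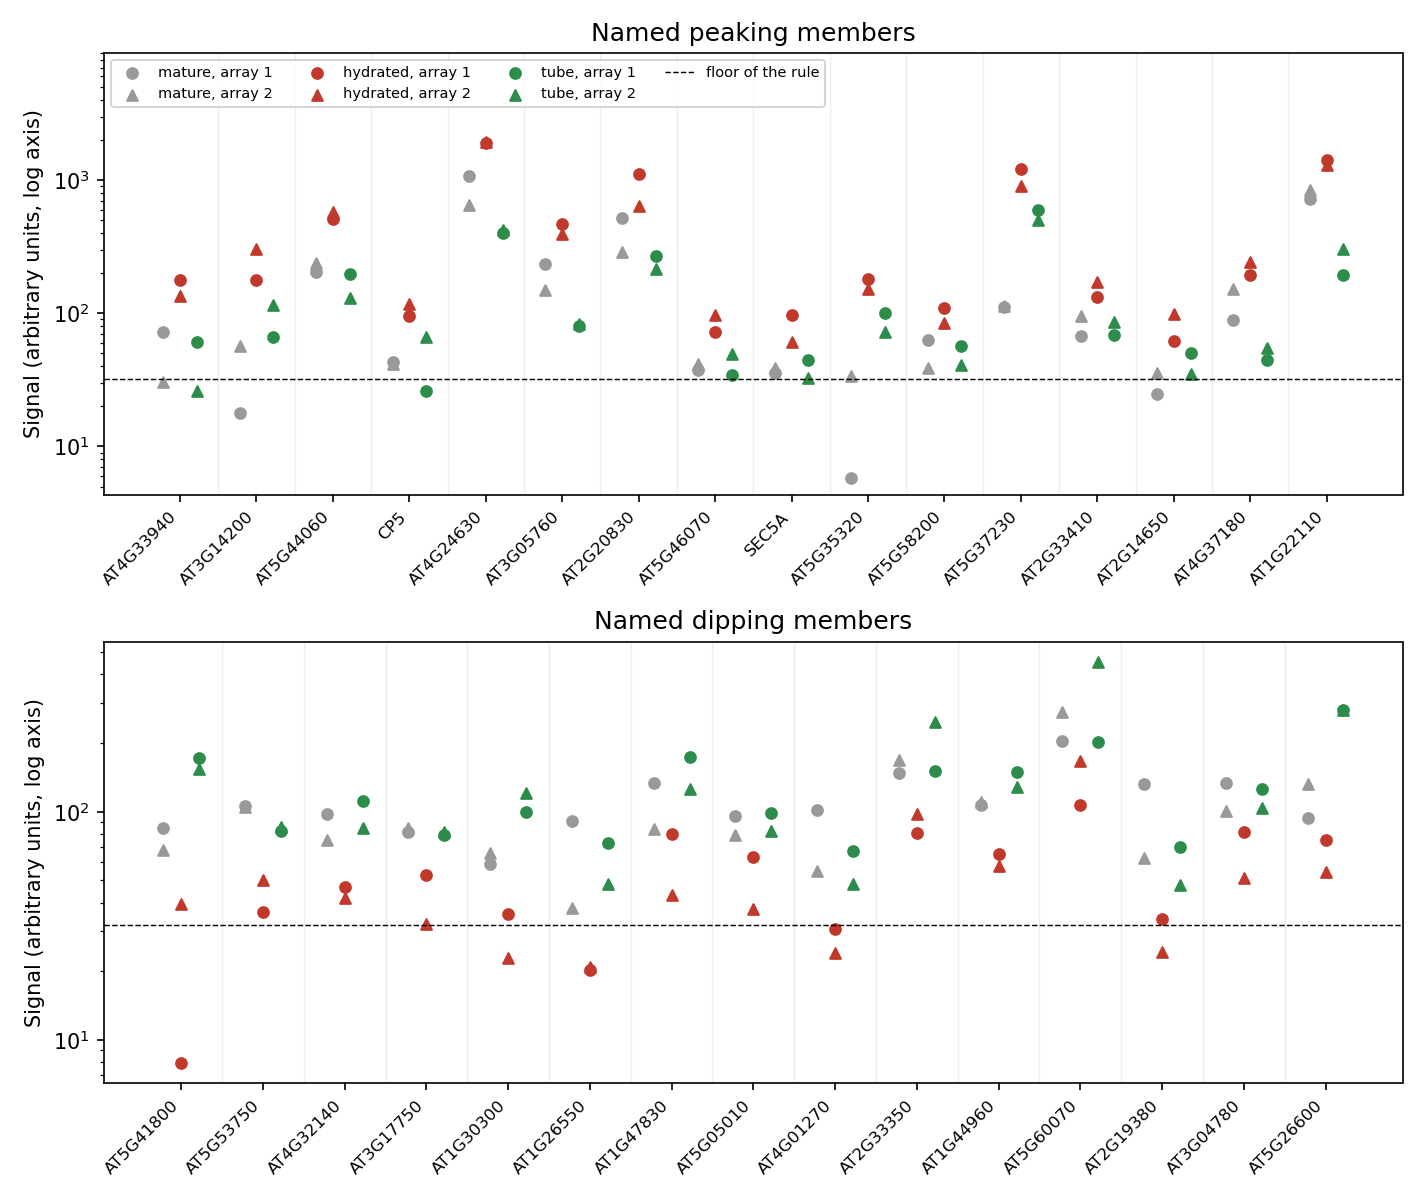
Signal on each array (vertical log axis, arbitrary units) of the 16 named peaks (top) and 15 named dips (bottom), with mature, hydrated and tube arrays from left to right within each gene, circles for array 1 and triangles for array 2. The dashed line is the floor of 32. Both hydrated arrays lie above or below the other 4 in each gene, as the rule requires, and several outer values of peaks and hydrated values of dips lie near the dashed line.

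Dips with 1 gene name numbered 22, another had several names, and 21 were unnamed here. Genes left out by name enter none of the counts and rankings of dips below. In 36 of the 44, tubes lay within 0.7 of mature pollen, in 8 at least 0.7 above, and in 0 at least 0.7 below. The median of tube minus mature was 0.31, beside -0.04 over all tested probe sets. A typical dip thus returned to its dry level or somewhat above it in tubes. The share of all tested probe sets within 0.7 was not counted, so close ends are not shown to be particular to dips.

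Transporters gave 3 named dips. AT5G41800, of the amino acid transporter family, had the lowest nearest difference among named dips at -1.09. It read 85 and 67.8 in mature pollen, 7.9 and 39.5 in hydrated pollen, and 172.3 and 153.5 in tubes. The first hydrated array was below background, and every tube array lay above every mature array. AT4G32140, of the EamA family of membrane transporters, read 98.2 and 75.1 in mature pollen, 46.9 and 41.8 in hydrated pollen, and 112 and 84.9 in tubes. AT3G60070, of the major facilitator superfamily, read 68.4 and 55.8 in mature pollen, 34.2 and 39.4 in hydrated pollen, and 66.2 and 53.8 in tubes.

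Membrane traffic was represented among dips as well, by 3 genes. AT1G47830, the small sigma subunit of the AP-2 adaptor of endocytosis, read 133 and 84.3 in mature pollen, 80 and 43.3 in hydrated pollen, and 173 and 125.2 in tubes. Its first hydrated array lay only just below its second mature array. AT5G05010, the delta subunit of the COPI coat, read 96.2 and 79.3 in mature pollen, 63.4 and 37.5 in hydrated pollen, and 98.8 and 82.5 in tubes. AT1G44960, of the SNARE-associated Golgi protein family, averaged 108.9 ± 2.90 in mature pollen, 61.7 ± 5.59 in hydrated pollen and 139.1 ± 14.4 on tube arrays. A subunit of the COPI coat thus stood among the dips and another, AT1G79990, among the peaks by its member probe set. The second probe set of AT1G79990 had hydrated minus mature at -0.89 and hydrated minus tube at -0.18. An opposed course of these subunits is therefore not shown.

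Of protein folding and related functions, 3 genes dipped. AT1G26550, a peptidyl-prolyl isomerase, read 91.1 and 38 in mature pollen, 20.2 and 20.8 in hydrated pollen, and 72.9 and 48.4 in tubes. Neither hydrated array was above background, so mature pollen was at least 2.31-fold and tubes at least 2.34-fold higher than hydrated pollen. The bound for mature pollen was 1.49-fold without mature array 1 and 3.58-fold without mature array 2. CRT1b, the calcium-binding chaperone calreticulin of the endoplasmic reticulum, averaged 53.8 ± 12.9 in mature pollen, 27.7 ± 2.76 in hydrated pollen and 79.1 ± 33.2 on tube arrays. AT4G10480, an alpha subunit of the nascent-polypeptide-associated complex on ribosomes, averaged 45.7 ± 12.1 in hydrated pollen, 0.72 below mature pollen.

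The remaining named dips were mostly dim. AT5G53750, a CBS-domain protein, had 106.3 and 104.9 in mature pollen, 36.4 and 50.1 in hydrated pollen, and 82.2 and 85.5 in tubes, with no overlap between any stages. AT3G17750, a protein kinase, had 81.9 and 84.8 in mature pollen, 53.1 and 32.2 in hydrated pollen, and 79 and 81.3 in tubes. AT5G26600, a pyridoxal-phosphate-dependent enzyme, stood higher in tubes, with 93.7 and 131.7 in mature pollen, 75.2 and 54.5 in hydrated pollen, and 278.2 and 279.9 in tubes. AT1G30300, a metallo-hydrolase, averaged 29.2 ± 8.98 in hydrated pollen, and AT2G17280, of the phosphoglycerate mutase family, 18.6 ± 16.5. AT2G19380, an RNA-recognition-motif protein, was furthest below mature pollen among named dips, by -1.47, and AT4G01270, a RING-type protein, differed by -1.22. AT2G33350, of the CCT-motif family, averaged 89.5 ± 11.9 in hydrated pollen, and AT5G60070, an ankyrin-repeat protein, was the brightest named dip there at 136.7 ± 42.1. AT3G04780, with a PITH domain, averaged 66.5 ± 21.5, and AT3G07910, related to the mitochondrial protein ROMO1, 41.8 ± 12.7.

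Among the dips kept after genes were left out by name, the clearest were unnamed probe sets. 264835_at read 279.4 and 322.3 in mature pollen, 145.2 and 84.1 in hydrated pollen, and 316.2 and 335.6 in tubes, with a nearest difference of -1.44. 260013_at had the same shape, with 318.8 and 353.6, then 160.6 and 116.1, then 362.7 and 406.1 in mature pollen, hydrated pollen and tubes in turn. The brightest dip was 262742_at, with 6577.1 and 5026.7 in mature pollen, 3264.8 and 3619.2 in hydrated pollen, and 6688.2 and 5037.5 in tubes. In these 3 probe sets mature pollen and tubes lay close together. Among unnamed peaks, 258336_at had the highest nearest difference, 1.71, with 5.1 and 2.7 in mature pollen, 72.7 and 150.9 in hydrated pollen, and 20.7 and 22.2 in tubes. It was at least 3.58-fold higher in hydrated than in mature pollen.

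The difference between tubes and mature pollen is not what the rule asks of a member, although the rule reads both stages' arrays. It was tested with limma across all 11412 probe sets that lay above background on at least 2 arrays, with Benjamini-Hochberg adjustment over all of them. All members met that filter, but 8 of the 69 peaks met it only through their hydrated arrays, the stage they were chosen for, with fewer than 2 of the 4 mature and tube arrays above background. Of all tested probe sets 7.9% passed an adjusted p of 0.05, 4.61% higher and 3.29% lower in tubes. Of the peaks 4 (5.8%) passed, 2 higher and 2 lower in tubes, and of the dips 2 (4.55%), both higher. These shares lie near the background. With a filter on the mature and tube arrays only, chosen after the data were seen, 61 peaks and all 44 dips were tested, and 4 peaks, 2 dips and 884 of all 9780 probe sets passed. The peak count moved with other choices, to 13 peaks (6 higher and 7 lower in tubes) and 2159 of all with the replicate number as a block, and to 10 peaks without mature array 2.

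Each of the 6 probe sets that passed had a large difference. The unnamed peak 260248_at read 262.1 and 193.5 in tubes, against 3.2 and 3.1 in mature pollen, and 280.2 and 535.9 in hydrated pollen. It rose at least 7.70-fold in tubes over mature pollen, a bound set from the background limit. The test used its mature values below background as they were (log2 difference 6.16, limma adjusted p = 6.43e-05). With a floor of 32 the difference was 2.82 (limma adjusted p = 0.0342). AT5G37230, the RING-type gene above, rose by 2.28 ± 0.32 (log2 ± SE, limma adjusted p = 0.00144). AT1G22110 fell by 1.69 ± 0.33 in tubes (limma adjusted p = 0.00957), which was not called without tube array 1 (adjusted p = 0.129) or without mature array 2 (adjusted p = 0.0506). The unnamed peak 252367_at fell by 1.77 ± 0.43 (limma adjusted p = 0.031), with 33 and 53.2 in tubes against 167.8 and 122.3 in mature pollen, and was not called without tube array 1 (adjusted p = 0.203), tube array 2 (0.0567), mature array 1 (0.128) or either hydrated array (0.0641 and 0.0646).

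Of the dips, the unnamed 261673_at read 1367 and 2148.3 in tubes, against 83 and 103.1 in mature pollen, with 42.5 and 71.6 in hydrated pollen. It rose by 4.21 ± 0.41 in tubes (limma adjusted p = 0.000148), and its dip was small beside that. The unnamed 250978_at rose by 1.87 ± 0.45 (limma adjusted p = 0.0305), with 234.9 and 351.8 in tubes against 81.5 and 75.5 in mature pollen. It was not called when any of the 4 tube and mature arrays was left out, with adjusted p between 0.0703 and 0.222.

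Over all tested probe sets, both tube arrays lay above both mature arrays in 20.8% and below them in 25.2%. The peaks had 13 (18.8%) above and 12 (17.4%) below. The dips had 14 (31.8%) above and 3 (6.82%) below, which was not tested.

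A second probe set for the same gene is a measure the rule did not use. Of the 3 member genes that have one, 1 had a second probe set with the same order of stage means, though not on both pairs of arrays. For AT1G79990, the second probe set read 305.8 and 324.3 in mature pollen, 189.7 and 151.7 in hydrated pollen, and 197.5 and 186.2 in tubes, so that hydrated pollen was 0.89 below mature pollen where the member probe set was 0.83 above it. For AT2G43160, the second probe set read 23.2 and 213 in mature pollen, 6.3 and 468 in hydrated pollen, and 5.8 and 210 in tubes, so that its hydrated mean was 0.57 above mature pollen and 0.58 above tubes. The higher hydrated signal was on the second arrays, and the first arrays were all below the floor of 32. For AT4G24860, of the P-loop nucleotide hydrolases, the second probe set lay at or below 22.5 on all 6 arrays, whereas the member probe set read 53.7 and 56.6 in hydrated pollen. For AT1G79990 and AT4G24860 the hydrated maximum therefore appears in 1 of their probe sets each.

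No 2 named members share a gene, and only AT2G33410, a peak, and AT2G33350, a dip, lie within 10 protein-coding genes of each other in the reference gene order.

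Pathway lists drawn up for rehydrating pollen held no member. Of 27 heat shock genes 8 were named on the arrays, of 35 early touch and wound genes 4, of 20 dehydration and late embryogenesis abundant genes 5, and of 18 pollen cell wall genes 10. With signals below 32 set to 32, in each list 0 peaked, 0 dipped, and 0 had both hydrated arrays on 1 side of all 4 others. Below that floor, the dehydration gene LTI30 read 17.3 and 10.2 in hydrated pollen and at most 6.8 elsewhere, and COR15A read 5.0 and 2.7 in hydrated pollen and at least 5.1 elsewhere. For comparison, 0.303% of all probe sets peaked and 0.215% dipped. At such shares, lists this short would rarely hold a member, so the absence says little about these pathways. The median of hydrated pollen minus the midpoint of the outer stages was 0.76 over the heat shock genes, -0.19 over touch and wound genes, 0.00 over dehydration genes and 0.08 over cell wall genes, beside 0.00 over all probe sets. The heat shock genes that were bright lay highest in tubes rather than in hydrated pollen. AT1G54050, a small heat shock protein, read 28.4 and 8.7 in mature pollen, 1697.7 and 714.8 in hydrated pollen, and 4529 and 2373.5 in tubes.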

How the data were processed

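Per the labels' protocols, each array took 8 µg of total RNA and 20 µg of cRNA. The values the authors deposited are linear signal intensity. The submitters' processing notes list GCOS 1.0 and MAS5. The scaling of arrays is not stated there. No detection calls were used. Of 22810 probe sets, 64 controls were left out. Of the rest, 13513 carried 1 gene in the platform annotation, 503 several, and 8730 were unnamed here. Symbols were updated through a TAIR10.1 gene table, which held 13436 of them. No sequences or coordinates are given.

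Members, lists and role groups were chosen with earlier results of these data known. Values below 32 were set to 32 for the rule. For the test, values below 0.1 were set to 0.1, and limma 3.58.1 in R 4.3.3 fitted 3 stage means with an intensity trend. A fold against a stage with neither array above its 60th percentile is written as "at least", with the dim stage set at that percentile or at its own value, whichever was higher. Named were the 15 single-gene peaks and 15 single-gene dips with the largest nearest differences, members called in tubes against mature pollen, and members next to the limit. Others were named after their values were seen. Python 3.11.15 and pandas 2.3.3 applied the rule. Rule and fit were each run on simulated data as a check of the code. Simulated signals for the rule lay above the floor with little noise, so that check does not bear on dim members. The number of arrays limits the precision. Alternatives were other floors, limits and scalings, the replicate number as a block, and each array left out.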

Additional observations from a re-analysis of the deposited data

How the results depend on the processing

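How many probe sets counted as hydrated peaks or dips depended strongly on the settings. With a floor of 16 there were 241 peaks and 180 dips, and with a floor of 64 there were 36 and 12. With a smallest difference of 0.5 there were 165 and 113, and with 1 there were 15 and 6. Scaling to a common 75th percentile left 29 dips, 27 of them shared with the 44, and 94 peaks, 60 shared with the 69. That scaling moved the median of hydrated minus mature over all tested probe sets by 0.11 on the log2 scale. Quantile normalization gave 83 peaks, 58 of them shared, and 52 dips, 38 shared. Leaving out 1 array gave between 80 and 346 peaks and between 46 and 171 dips, a weaker demand by construction, since fewer arrays must be apart. Peaks numbered 346 without hydrated array 2, 277 without hydrated array 1, 170 without mature array 2 and 114 without mature array 1. Dips numbered 171 without hydrated array 1, 124 without hydrated array 2, 126 without mature array 2 and 78 without tube array 2. Of the 69 peaks, 47 remained without mature array 1, and of the 44 dips, 26. With the replicate number as a block there were 94 peaks and 53 dips. Of 341 values for the 31 genes in the plot of named members, 36 moved by more than the spread between replicates. The rule itself fixes their sign when an array is left out, and the block leaves their stage differences as they are, so neither bears on stability.

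In tubes against mature pollen, 4 peaks and 2 dips passed. With the replicate block 13 peaks passed and 2159 of all 11412 tested, beside 901. Without the intensity trend 1 peak and 1 dip passed, and 228 of all. With a floor of 32, 1 dip passed, and with a common 75th percentile 2 peaks and 1 dip. Quantile normalization left 1 dip. Leaving out 1 array gave 2 to 10 peaks, 1 to 2 dips and 349 to 757 of all. Peaks were 10 without mature array 2 and 2 without tube array 1, dips were 1 without any one of the mature or tube arrays, and all were 349 without tube array 1 and 468 without tube array 2. Of the 6 probe sets called, 260248_at and 261673_at passed under every alternative, and AT5G37230 under every one but the fit without a trend (adjusted p = 0.0665). A filter on mature and tube arrays only, added after the data were seen, called 4 peaks, 2 dips and 884 of all 9780 tested. The limma adjusted p over the alternatives reached 0.141 for AT1G22110, 0.203 for 252367_at and 0.222 for 250978_at, and each of these was lost without the trend and with a common 75th percentile. The cause of these shifts was not tested. Deviations of same-numbered arrays from their stage means correlated at 0.22 between tubes and mature pollen, 0.17 between hydrated and mature pollen, and 0.18 between tubes and hydrated pollen across probe sets, which are not independent replicates. The labels do not say that equal numbers mark a shared harvest or batch.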
